A study of Homo sapiens with 18 samples.

Results

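Gene expression in untreated HCT116 cells that carried the M3 form of IκBα was compared with that in untreated HCT116 cells that carried the wild-type form (WT). HCT116 is a human colorectal carcinoma line of epithelial origin. M3 is a knock-in in which histidine 84 and glutamates 85 and 86 are replaced by alanine, per the design notes of the series. The comparison used all genes that passed a low-count filter, 19038 of the 61552 in the count table, in 6 of the 18 libraries of the series. The groups used were M3 untreated, N108 untreated (a second knock-in, named for residue 108), WT untreated, M3 with TNF and WT with TNF, each with 3 libraries. Human TNFα was given at 0.1 µg/mL for 40 min. All lines shared the HCT116 background and a knock-in of IκBα, so the control cells were themselves engineered. The labels name 1 line per genotype and do not say whether a line was a clone or a pool, so a difference due to the mutation and a difference between lines cannot be told apart. Nor do they say that replicates came from separate cultures. The p-values therefore rest on differences among the 3 libraries of a group, which may be of technical origin.

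IκBα, the product of NFKBIA, binds NF-κB dimers through its ankyrin repeats and keeps them in the cytoplasm. Signals such as TNF activate the IκB kinase, IκBα is degraded, and the freed dimers switch on genes that include NFKBIA itself, so the inhibitor is rebuilt. In epithelial cells IκBα has also been found at chromatin, bound to histones and near Polycomb-repressed genes of stem cell and developmental programmes. The series asks, by its title, which of these functions bears on the stem cell state of the intestine, with mutants meant to part them.

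Promoters of genes that stand for 4 of the groups described here are printed first, as RefSeq gives them on GRCh38.p14. Each is the 250 bases before the gene's start, 5′ to 3′ on the gene's strand, with the matches to the motif searched on both strands in capitals. TNFAIP3 and its matches to the κB consensus stand for the early NF-κB targets, and IFIT1 and ISG15 for the interferon-stimulated genes, with matches to the core of the interferon-stimulated response element (GAAA, any 2 bases, GAAA). CCN2 stands for the YAP and TAZ targets, with matches to the TEAD motif (GGAATG), and PLK1 for the mitotic genes, with a match to the cell cycle homology region (TTTGAA). The 2 matches in ISG15 share bases. These 5 genes were chosen with their values known. All were lower in M3 than in WT, which does not hold for every gene of their lists. TNFAIP3, at -1.71, had the lowest log2 fold change of the early NF-κB targets, whose median was -0.21.
TNFAIP3, chr6:137867009-137867258, plus strand: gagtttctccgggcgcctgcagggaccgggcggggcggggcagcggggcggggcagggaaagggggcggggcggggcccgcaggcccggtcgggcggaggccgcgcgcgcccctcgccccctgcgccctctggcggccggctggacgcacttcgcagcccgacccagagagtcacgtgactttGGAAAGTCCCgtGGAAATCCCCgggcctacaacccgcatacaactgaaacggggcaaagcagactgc
IFIT1, chr10:89392373-89392622, plus strand: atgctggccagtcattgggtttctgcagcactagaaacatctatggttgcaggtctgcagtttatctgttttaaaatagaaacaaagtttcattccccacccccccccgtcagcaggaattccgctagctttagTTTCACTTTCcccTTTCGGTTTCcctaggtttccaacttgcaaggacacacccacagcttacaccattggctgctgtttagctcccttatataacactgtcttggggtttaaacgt
ISG15, chr1:1013247-1013496, plus strand: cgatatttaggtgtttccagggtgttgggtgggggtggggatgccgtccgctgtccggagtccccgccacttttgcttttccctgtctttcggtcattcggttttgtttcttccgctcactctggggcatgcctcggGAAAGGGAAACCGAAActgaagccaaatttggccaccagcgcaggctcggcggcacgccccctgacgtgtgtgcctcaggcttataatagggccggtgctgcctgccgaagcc
CCN2, chr6:131951373-131951622, minus strand: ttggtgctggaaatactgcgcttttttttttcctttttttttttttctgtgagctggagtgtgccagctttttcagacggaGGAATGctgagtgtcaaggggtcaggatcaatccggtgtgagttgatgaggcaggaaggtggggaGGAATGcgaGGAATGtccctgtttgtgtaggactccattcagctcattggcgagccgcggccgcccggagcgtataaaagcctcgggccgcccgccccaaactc
PLK1, chr16:23678639-23678888, plus strand: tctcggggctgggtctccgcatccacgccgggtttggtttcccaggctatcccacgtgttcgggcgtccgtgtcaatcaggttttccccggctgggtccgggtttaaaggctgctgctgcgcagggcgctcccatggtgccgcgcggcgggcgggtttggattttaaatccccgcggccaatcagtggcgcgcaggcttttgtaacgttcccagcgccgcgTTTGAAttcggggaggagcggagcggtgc

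The share of promoters with a match was set beside that among all 27305 promoters. For these shares the window also ran past the gene's start, so it was longer than the 250 bases printed. For the early NF-κB targets, 28 of 32 measured genes matched a promoter and 16 of these (57.1%) held the κB consensus, against 10.8% of all promoters. Among interferon-stimulated genes, 36 of 46 matched and 26 (72.2%) held the response element core, against 3.65%. For the YAP and TAZ list 28 of 37 matched and 7 (25%) held the TEAD motif, against 14%. Of the mitotic genes 35 of 41 matched and 21 (60%) held the cell cycle motif, against 15.4%. A match describes the letters of a window and does not show that a factor bound there. The lists were made of genes known for such regulation, and members counted whether or not they differed in M3. The shares therefore say nothing about the M3 difference.

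The 6 libraries held 49407844 to 76947190 counts, 56993019 to 61141913 in the M3 libraries and 49407844 to 76947190 in the WT libraries. Levels are given as CPM, a gene's share of the scaled counts of its library, and fewer cells of a kind and less RNA per cell cannot be told apart. The median coefficient of variation over 3 libraries was 5.40% in M3 and 3.68% in WT. The label of an epithelial colorectal line was checked against markers. All 9 epithelial markers, such as EPCAM and CDH1, were measured, with a summed level of 4675 to 4981 CPM in M3 and 6956 to 7326 CPM in WT. Of 5 colon lineage markers 2 were measured, CDX2 among them, while LGALS4 and CDH17 lay under 0.1 CPM in both groups. Of the markers of other cell types, 4 of 7 of fibroblasts (COL1A2, DCN, LUM and FAP), 2 of 4 of endothelium (PECAM1 and CDH5) and 5 of 7 of leukocytes (PTPRC, CD3E, MS4A1 and TYROBP among them) lay under 0.1 CPM in both groups. The others were detected, and COL1A1, COL3A1, PDGFRB, VWF, KDR and LYZ passed the filter. The fibroblast list summed to 31.3 to 36.9 CPM in M3 and 27.2 to 28.1 CPM in WT, the endothelial list to 1.23 to 1.51 CPM in M3 and 1.62 to 1.77 CPM in WT, and the leukocyte list, of which LYZ was the measured gene, to 0.294 to 0.649 CPM in M3 and 2.61 to 3.16 CPM in WT.

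In untreated M3 cells 10079 of 19038 genes differed from WT (52.9%; edgeR's quasi-likelihood test, Benjamini-Hochberg adjusted p under 0.05). Of these, 4974 (26.1%) were higher in M3 and 5105 (26.8%) lower. The difference was mostly small: the median absolute log2 fold change of a called gene was 0.44, with quartiles of 0.26 and 0.78. It reached 2-fold in 1763 genes (9.26%), 821 higher (4.31%) and 942 lower (4.95%). That count depended on the filter, with 895 genes when at least 1 CPM was required in 3 libraries and 2107 with no filter. Large differences lay mainly on the lower side. At a log2 fold change of 4 or more in size, 27 genes were higher and 108 lower, and at 6 or more, 15 were higher and 45 lower. The values of the 3 M3 libraries did not overlap those of the 3 WT libraries in 11451 genes (60.1%). Protein-coding genes were called lower more often (4539 of 13907) than higher (3756). Among lincRNA genes 316 were higher and 164 lower of 1146, and among antisense genes 376 were higher and 130 lower of 1319. No source used here says whether strand was used in the counting, so values of antisense and overlapping genes are uncertain. A group described below is to be read against these shares, and against a median log2 fold change of 0.00 over all genes tested.

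**Figure D1:**
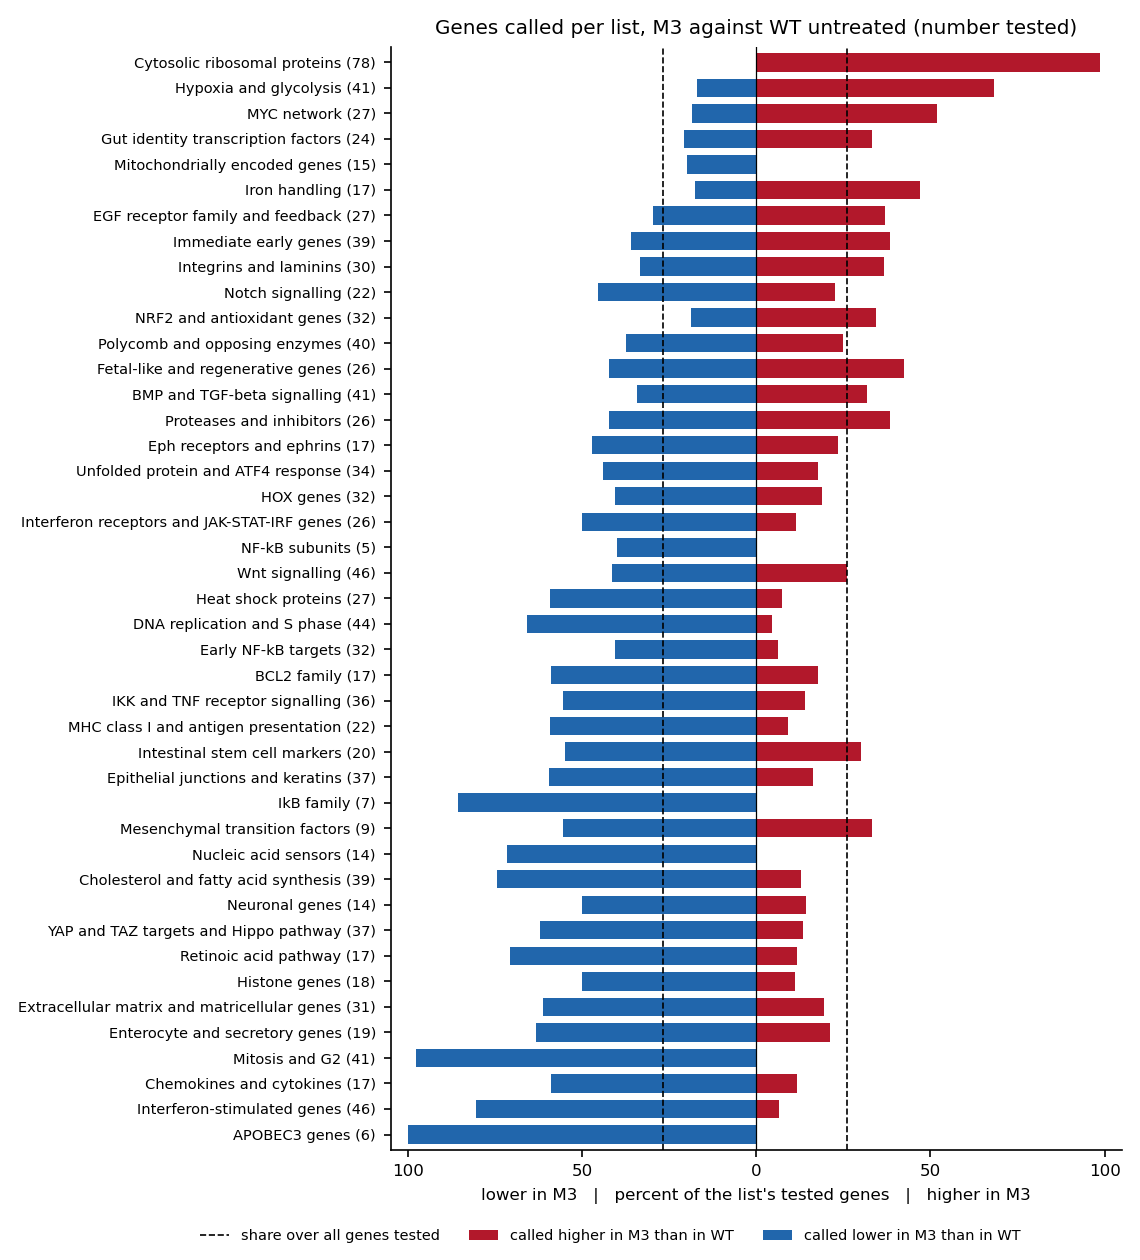
Share of the measured genes of each list that were higher (red, right) or lower (blue, left) in untreated M3 than in WT, in percent on the x axis, with the number of genes measured in brackets. Dashed lines mark the shares over all genes tested, 26.1% higher and 26.8% lower. Ribosomal protein genes reach far right, and APOBEC3, mitotic and interferon-stimulated genes far left.

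The knocked-in gene itself was modestly lower. NFKBIA, at chr14:35401511-35404749 of GRCh38 on the minus strand, had 79.02, 78.1 and 76.7 CPM in the M3 libraries, against 90.8, 87.4 and 96.5 CPM in the WT libraries. All M3 values lay below all WT values (log2 fold change -0.23, SE 0.0509, edgeR adjusted p = 3.62e-04), a level 1.17-fold lower. Gene counts do not read the changed residues, so this level does not check the labels. N108 was further from WT in the same direction, at 30.1, 28.5 and 32.1 CPM, and M3 was higher than N108 (log2 fold change 1.37, edgeR adjusted p = 1.90e-17).

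Most genes of the IκB family were lower. Of 7 members, NFKBIA among them, 6 fell, 0 rose and NFKBIL1 did not pass, with a median log2 fold change of -0.33. NFKBIL1 passed as higher once a GC trend in the libraries was removed. NFKBIZ, a nuclear member that acts with NF-κB on a subset of its targets, had 3.25, 3.30 and 3.07 CPM in the M3 libraries, against 6.81, 6.34 and 6.58 CPM in the WT libraries. Here the difference was 2.05-fold lower (log2 fold change -1.04, SE 0.0866, edgeR adjusted p = 6.96e-11). BCL3, a nuclear partner of the p50 and p52 subunits, had 16.1, 15.6 and 15.7 CPM in the M3 libraries, against 25.5, 23.99 and 26.2 CPM in the WT libraries (log2 fold change -0.67, SE 0.0927, edgeR adjusted p = 3.24e-06). Both genes had groups that did not overlap. NFKBIB and NFKBIE, the inhibitors closest to IκBα in action, fell by 0.35 and 0.23 on the log2 scale (edgeR adjusted p = 2.65e-05 and 0.0032).

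Among the subunits that form NF-κB dimers, 2 of 5 fell and 0 rose, against 26.8% lower and 26.1% higher over all genes. NFKB1, the precursor of p50, had 49.4, 51.7 and 51.5 CPM in the M3 libraries, against 68.97, 70.6 and 70.1 CPM in the WT libraries, without overlap (log2 fold change -0.46, SE 0.0431, edgeR adjusted p = 7.05e-10). RELA, the p65 subunit, had 98.5, 94.3 and 98.7 CPM in the M3 libraries, against 109, 109.96 and 111 CPM in the WT libraries, also without overlap (log2 fold change -0.18, SE 0.0470, edgeR adjusted p = 0.0021). REL, RELB and NFKB2 did not pass, at log2 fold changes of -0.17, -0.11 and 0.05 (edgeR adjusted p = 0.094, 0.32 and 0.46), and their groups overlapped. Removing a GC trend in the libraries brought REL and NFKB2 past the threshold, at -0.21 and 0.15, and RELB passed without M3 replicate 3, at -0.24.

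Genes that carry the TNF signal to NF-κB fell more often than they rose, 20 against 5 of 36. TNFAIP3, which encodes the deubiquitinase A20 that shuts the pathway off, had 7.16, 7.36 and 8.22 CPM in the M3 libraries, against 24.6, 24.9 and 24.9 CPM in the WT libraries. It was 3.27-fold lower (log2 fold change -1.71, SE 0.0673, edgeR adjusted p = 5.58e-18), the lowest value on this list. IKBKB, the catalytic subunit of the IκB kinase, had 33.9, 33.2 and 32.97 CPM in the M3 libraries, against 48.4, 45.7 and 47.00 CPM in the WT libraries (log2 fold change -0.50, SE 0.0490, edgeR adjusted p = 1.77e-09). RIPK1, the adaptor kinase of the TNF receptor complex, was lower by a like amount (log2 fold change -0.50, edgeR adjusted p = 3.06e-10). TNFAIP8, an inhibitor of apoptosis induced by TNF, went the other way with 28.7, 28.5 and 21.8 CPM in the M3 libraries, against 13.9, 13.6 and 12.4 CPM in the WT libraries (log2 fold change 0.98, SE 0.0915, edgeR adjusted p = 5.55e-09). In these 4 genes no M3 value crossed a WT value.

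Early targets of NF-κB were lower more often than higher where they passed. Of 32 measured of 40, 13 fell, 2 rose and 17 did not pass, with a median of -0.21. The count that rose was 4 with the GC trend removed and 1 with at least 1 CPM required in 3 libraries. IRF1, an interferon regulatory factor, had 17.9, 17.1 and 19.02 CPM in the M3 libraries, against 32.8, 33.6 and 33.8 CPM in the WT libraries (log2 fold change -0.89, SE 0.0660, edgeR adjusted p = 5.98e-12). TNFAIP2 fell by 0.60 on the log2 scale (edgeR adjusted p = 7.58e-09). IER3, a small stress protein, was among the 2 that rose, with 353, 335 and 361 CPM in the M3 libraries, against 237, 237 and 244 CPM in the WT libraries (log2 fold change 0.55, SE 0.0526, edgeR adjusted p = 1.11e-09). IL32 was the other, at a low level, with 0.156, 0.276 and 0.403 CPM in the M3 libraries, against 0.129, 0.0614 and 0.0200 CPM in the WT libraries (edgeR adjusted p = 0.0015). The chemokine CXCL8 had 0.900, 0.975 and 0.964 CPM in the M3 libraries, against 1.91, 1.83 and 2.02 CPM in the WT libraries, 2.02-fold lower (edgeR adjusted p = 1.05e-06). CXCL1 was close to the threshold (log2 fold change -0.57, edgeR adjusted p = 0.028) and lost it without M3 replicate 2 or 3, without WT replicate 3 and with a GC trend removed. CXCL2 did not pass, with 0.312, 0.374 and 0.351 CPM in the M3 libraries, against 0.348, 0.215 and 0.200 CPM in the WT libraries, values that overlapped. Expression of CXCL10, CCL2, IL1B and IL6 was too low to be tested.

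Secreted signals as a group were lower more often than higher. Among 17 chemokines and cytokines measured of 27, 10 fell and 2 rose, with a median of -0.70. IL18, an epithelial cytokine of the gut, had 84.6, 80.5 and 81.4 CPM in the M3 libraries, against 149, 141 and 151 CPM in the WT libraries (log2 fold change -0.84, SE 0.0514, edgeR adjusted p = 1.12e-13). IL15, a growth factor of lymphocytes, had 0.848, 0.813 and 0.911 CPM in the M3 libraries, against 2.85, 2.96 and 3.30 CPM in the WT libraries (log2 fold change -1.82, SE 0.138, edgeR adjusted p = 9.95e-12). LIF, which acts through STAT3, had 45.3, 42.8 and 47.5 CPM in the M3 libraries, against 73.5, 75.7 and 72.8 CPM in the WT libraries (log2 fold change -0.71, SE 0.0579, edgeR adjusted p = 4.11e-11). These 3 were lower in every M3 library. TGFB1 and TGFB2 parted: TGFB1 had 104.94, 105.02 and 108 CPM in the M3 libraries, against 50.8, 50.03 and 51.1 CPM in the WT libraries (log2 fold change 1.07, SE 0.0595, edgeR adjusted p = 1.47e-14), while TGFB2 had 0.260, 0.211 and 0.228 CPM in the M3 libraries, against 0.888, 1.27 and 1.18 CPM in the WT libraries (log2 fold change -2.24, SE 0.227, edgeR adjusted p = 2.86e-09).

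Immediate early genes, which answer growth factors within minutes, changed in both directions. Of 39 members 15 rose and 14 fell, with a median of 0.04, against 26.1% higher and 26.8% lower over all genes. EGR1 had 78.1, 77.3 and 77.96 CPM in the M3 libraries, against 30.1, 33.5 and 31.6 CPM in the WT libraries, 2.45-fold higher (edgeR adjusted p = 9.32e-17). FOSL2, an AP-1 subunit, had 100.4, 99.98 and 91.1 CPM in the M3 libraries, against 34.9, 32.3 and 36.7 CPM in the WT libraries, 2.81-fold higher (edgeR adjusted p = 1.53e-17). NR4A3, an orphan nuclear receptor, had 0.485, 0.374 and 0.438 CPM in the M3 libraries, against 5.64, 5.23 and 6.16 CPM in the WT libraries, 13.1-fold lower (edgeR adjusted p = 2.36e-19). The dual-specificity phosphatases of the ERK pathway also split. DUSP6, which acts on cytoplasmic ERK, had 307, 324 and 279 CPM in the M3 libraries, against 141, 143 and 141 CPM in the WT libraries (edgeR adjusted p = 1.44e-16), and DUSP4, which acts in the nucleus, had 164, 166 and 167 CPM in the M3 libraries, against 452, 448 and 447 CPM in the WT libraries (edgeR adjusted p = 4.37e-21). For each of these 5 genes the groups did not overlap. Growth factor ligands and feedback genes of the EGF receptor were mixed in the same way, 10 higher and 8 lower of 27. AREG, an EGF receptor ligand, had 196, 192 and 201 CPM in the M3 libraries, against 67.5, 68.4 and 68.6 CPM in the WT libraries (log2 fold change 1.53, SE 0.0481, edgeR adjusted p = 3.39e-20). ETV1 and SPRY4, a transcription factor and a feedback inhibitor of the pathway, rose by 1.17 and 0.67 on the log2 scale.

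Interferon-stimulated genes were lower in most cases. These are antiviral effectors and regulators switched on after interferon by a complex that contains IRF9. Of 46 measured of 51, 37 fell and 3 rose (median -0.76), against 26.8% lower and 26.1% higher over all genes. Without WT replicate 2, 1 of them rose. IFIT1, which binds foreign RNA, had 4.6, 4.19 and 4.26 CPM in the M3 libraries, against 17.3, 18.6 and 16.1 CPM in the WT libraries (log2 fold change -1.99, SE 0.0826, edgeR adjusted p = 1.76e-17). ISG15, a ubiquitin-like protein, had 31.2, 31.4 and 36.9 CPM in the M3 libraries, against 75.96, 73.1 and 81.3 CPM in the WT libraries (log2 fold change -1.21, SE 0.0756, edgeR adjusted p = 2.70e-12). OAS1, which makes the activator of RNase L, had 1.02, 0.699 and 1.16 CPM in the M3 libraries, against 14.4, 14.7 and 14.8 CPM in the WT libraries, 15.3-fold lower (log2 fold change -3.93, SE 0.157, edgeR adjusted p = 1.09e-15). All M3 values of these genes lay below all WT values. IFI35 had 6.07, 6.57 and 7.38 CPM in the M3 libraries, against 30.1, 29.8 and 29.9 CPM in the WT libraries (log2 fold change -2.16, SE 0.0727, edgeR adjusted p = 1.46e-19), and BST2, which tethers budding virions, had 3.36, 3.45 and 4.29 CPM in the M3 libraries, against 14.4, 15.8 and 15.6 CPM in the WT libraries (log2 fold change -2.05, SE 0.0869, edgeR adjusted p = 3.05e-17). APOL6 had 1.26, 1.46 and 1.40 CPM in the M3 libraries, against 9.68, 9.33 and 9.36 CPM in the WT libraries, 6.86-fold lower (edgeR adjusted p = 2.35e-18). OAS3, a relative of OAS1, and IFITM3, which blocks viral entry, were lower by 1.16 and 0.78 on the log2 scale (edgeR adjusted p = 5.49e-17 and 2.28e-12). DDX60L, one of the 3 that rose, had 48.5, 48.6 and 43.98 CPM in the M3 libraries, against 24.6, 24.6 and 23.5 CPM in the WT libraries (log2 fold change 0.96, SE 0.0585, edgeR adjusted p = 1.02e-13).

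Genes of the interferon signal chain fell more often than they rose. Of 26 receptor, JAK, STAT and IRF genes 13 fell, 3 rose and 10 did not pass. IRF9, the DNA-binding subunit of that complex, had 1.11, 1.12 and 0.929 CPM in the M3 libraries, against 3.10, 2.99 and 2.96 CPM in the WT libraries (log2 fold change -1.52, SE 0.152, edgeR adjusted p = 2.29e-09). IRF7, the factor that amplifies interferon production, had 6.56, 6.26 and 7.33 CPM in the M3 libraries, against 15.9, 15.4 and 15.8 CPM in the WT libraries (log2 fold change -1.23, SE 0.0770, edgeR adjusted p = 1.79e-13). Both were lower in every M3 library. SOCS3, a feedback inhibitor of STAT3 signalling, fell by 0.83 on the log2 scale (edgeR adjusted p = 2.45e-12). Of 14 sensors of foreign RNA and DNA and their adaptors, 10 fell and 0 rose. The RNA sensor IFIH1 (MDA5) had 9.45, 9.30 and 8.47 CPM in the M3 libraries, against 16.8, 17.8 and 17.7 CPM in the WT libraries (log2 fold change -0.94, SE 0.0647, edgeR adjusted p = 1.24e-12), and STING1, the adaptor for cytosolic DNA, had 34.96, 33.6 and 36.5 CPM in the M3 libraries, against 58.3, 55.8 and 56.8 CPM in the WT libraries (log2 fold change -0.70, SE 0.0503, edgeR adjusted p = 3.01e-12). TLR3 and SAMHD1 fell by 0.99 and 0.47 on the log2 scale.

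Antigen presentation genes were mostly lower. Of 22 members, 13 fell and 2 rose (median -0.26), against 26.8% lower and 26.1% higher over all genes. Their summed level was not lower, at 3128 to 3308 CPM in M3 and 3129 to 3215 CPM in WT. With both a replicate block and removal of the GC trend, 4 rose. PSMB10, a subunit of the immunoproteasome, had 2.27, 2.31 and 3.35 CPM in the M3 libraries, against 7.39, 7.35 and 8.08 CPM in the WT libraries (log2 fold change -1.53, SE 0.114, edgeR adjusted p = 7.73e-12). TAP2, a subunit of the transporter that brings peptides to class I molecules, had 18.8, 20.1 and 19.5 CPM in the M3 libraries, against 31.1, 31.5 and 30.2 CPM in the WT libraries (log2 fold change -0.67, SE 0.0564, edgeR adjusted p = 8.29e-11). NLRC5, the transactivator of class I genes, had 8.67, 8.63 and 9.52 CPM in the M3 libraries, against 16.1, 16.3 and 17.3 CPM in the WT libraries (log2 fold change -0.89, SE 0.0697, edgeR adjusted p = 1.95e-11). These groups did not overlap. HLA-C, a class I heavy chain, did not pass (log2 fold change -0.11, edgeR adjusted p = 0.11), though it did without M3 replicate 3, at -0.15. B2M, the invariant chain, fell by 0.22 on the log2 scale (edgeR adjusted p = 2.91e-04).

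The APOBEC3 cytidine deaminases, which restrict viruses and retroelements and can mutate the genome, were lower as a family. All 6 measured members fell (median -1.94), while APOBEC3A and the related APOBEC1 were too low to be tested. APOBEC3G had 0.104, 0.0488 and 0.0701 CPM in the M3 libraries, against 50.4, 48.2 and 52.4 CPM in the WT libraries, 664-fold lower (SE of the log2 fold change 0.136, edgeR adjusted p = 5.31e-28). APOBEC3F had 20.9, 21.1 and 21.5 CPM in the M3 libraries, against 143, 142 and 141 CPM in the WT libraries, 6.70-fold lower (edgeR adjusted p = 2.71e-26). APOBEC3C, of which WT had far more counts, had 102, 107 and 105.20 CPM in the M3 libraries, against 452, 449.8 and 436 CPM in the WT libraries, 4.26-fold lower (edgeR adjusted p = 1.93e-22). In APOBEC3G almost nothing was left in M3, while the other genes kept a clear level. APOBEC3B, APOBEC3D and APOBEC3H fell by 1.79, 1.74 and 1.56 on the log2 scale. N108 stood between M3 and WT for APOBEC3G, with 4.83, 4.33 and 4.69 CPM, and M3 was lower than N108 (edgeR adjusted p = 3.22e-19). The family arose by duplication, so reads can be split between its members.

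**Figure D2:**
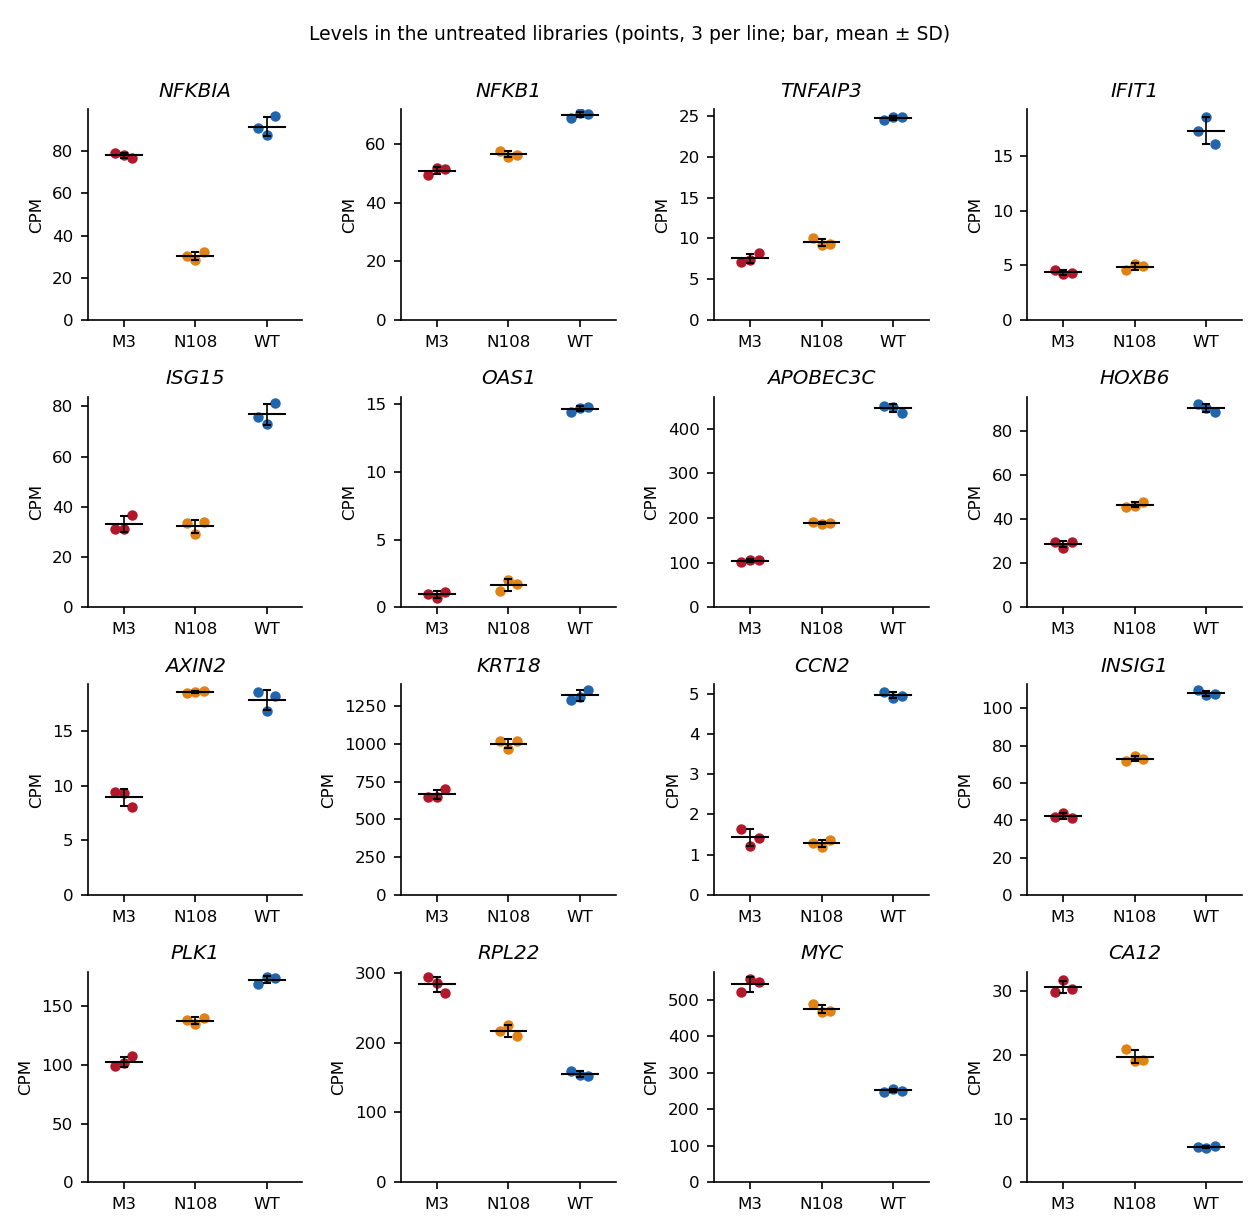
Levels in CPM (y axis, from 0) of 16 genes in the untreated M3, N108 and WT libraries, with 3 points per line and bars for mean ± SD. M3 lies below WT for genes from NFKBIA to PLK1 and above WT for RPL22, MYC and CA12, while N108 lies below both for NFKBIA and beside WT for AXIN2.

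Stem cell genes of the crypt, the topic named in the title, did not move together. Of 20 measured of 27, 11 fell and 6 rose (median -0.26), against 26.8% lower and 26.1% higher over all genes. LGR5, ASCL2, OLFM4 and SMOC2, which define crypt-base stem cells, were too low to be tested. AXIN2, a direct Wnt target and feedback gene, had 9.43, 9.36 and 8.08 CPM in the M3 libraries, against 18.6, 16.9 and 18.2 CPM in the WT libraries (log2 fold change -1.0, SE 0.0677, edgeR adjusted p = 9.77e-13). ZNRF3, a ligase that removes Wnt receptors, had 40.8, 42.4 and 39.2 CPM in the M3 libraries, against 87.7, 87.6 and 88.00 CPM in the WT libraries (log2 fold change -1.11, SE 0.0474, edgeR adjusted p = 3.77e-17). SOX9, a factor of stem and Paneth cells, had 147, 150.3 and 134 CPM in the M3 libraries, against 248, 236 and 249 CPM in the WT libraries (log2 fold change -0.77, SE 0.0488, edgeR adjusted p = 2.48e-13). Each was lower in every M3 library. RNF43, the partner of ZNRF3, fell by 0.66 on the log2 scale, and CD44 and LGR4 by 0.18 and 0.35 (edgeR adjusted p = 5.93e-07, 3.55e-04 and 1.31e-04). MYB, a factor needed by colon progenitors, had 17.3, 18.3 and 17.5 CPM in the M3 libraries, against 9.05, 8.29 and 7.66 CPM in the WT libraries (log2 fold change 1.08, SE 0.0610, edgeR adjusted p = 1.91e-14), and EPHB2, a receptor that keeps cells at the crypt base, had 68.5, 69.7 and 74.8 CPM in the M3 libraries, against 51.7, 51.2 and 52.6 CPM in the WT libraries (log2 fold change 0.45, SE 0.0456, edgeR adjusted p = 2.45e-09). AXIN2, RNF43 and ZNRF3 were lower in M3 than in N108 as well, by 1.05, 3.31 and 0.83 on the log2 scale (edgeR adjusted p = 1.27e-12, 3.27e-22 and 9.93e-14). For RNF43 the gap to N108 was wider than that to WT, since N108 lay above WT.

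Wnt pathway genes at large changed in both directions. Of 46 measured, 19 fell and 12 rose, against 26.8% lower and 26.1% higher over all genes. DKK1, a secreted inhibitor of Wnt receptors, had 146, 152 and 140.1 CPM in the M3 libraries, against 486, 473 and 478 CPM in the WT libraries (log2 fold change -1.71, SE 0.0484, edgeR adjusted p = 2.63e-21). Its relative DKK4 was nearly absent from WT, with 2.28, 1.95 and 1.86 CPM in the M3 libraries, against 0.103, 0.0154 and 0.140 CPM in the WT libraries (log2 fold change 4.58, SE 0.272, edgeR adjusted p = 5.89e-14). TCF7L2, the main Wnt-responsive DNA-binding factor of the colon, had 330.2, 336 and 292 CPM in the M3 libraries, against 107, 107 and 98.9 CPM in the WT libraries (log2 fold change 1.62, SE 0.0566, edgeR adjusted p = 3.85e-19). MYC, a target of Wnt in the colon, had 519, 556 and 549 CPM in the M3 libraries, against 248, 257 and 251 CPM in the WT libraries (log2 fold change 1.10, SE 0.0510, edgeR adjusted p = 2.05e-16), and SOX4 had 671, 693 and 572 CPM in the M3 libraries, against 272, 249.7 and 270.3 CPM in the WT libraries (log2 fold change 1.29, SE 0.0629, edgeR adjusted p = 8.46e-15). None of these groups overlapped. In the comparison of M3 with N108, 21 Wnt genes were lower in M3 and 6 higher, against 16.4% lower and 15% higher over all genes.

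Fetal and regenerative genes, expressed by the gut during development and repair, were even, with 11 higher and 11 lower of 26. The shares over all genes were 26.1% higher and 26.8% lower. S100A10, the annexin A2 partner, had 16.03, 13.8 and 16.8 CPM in the M3 libraries, against 72.6, 72.7 and 70.3 CPM in the WT libraries (log2 fold change -2.21, SE 0.0589, edgeR adjusted p = 6.85e-22). CLU, a marker of revival stem cells in mouse, had 84.1, 88.2 and 88.9 CPM in the M3 libraries, against 153, 154 and 158 CPM in the WT libraries (log2 fold change -0.83, SE 0.0489, edgeR adjusted p = 4.44e-14). ANXA3 is described with the abundant genes below. IL1RN, the interleukin 1 receptor antagonist, had 1.23, 1.37 and 1.67 CPM in the M3 libraries, against 0.309, 0.276 and 0.360 CPM in the WT libraries (log2 fold change 2.18, SE 0.226, edgeR adjusted p = 4.50e-09), higher in every M3 library.

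Notch genes showed 10 lower and 5 higher of 22, and 3 higher without M3 replicate 2 or without WT replicate 2. MAML2, a coactivator of Notch, had 5.57, 6.78 and 6.01 CPM in the M3 libraries, against 19.4, 19.8 and 18.4 CPM in the WT libraries (log2 fold change -1.65, SE 0.0835, edgeR adjusted p = 1.60e-15), while NOTCH1 and JAG1 fell by 0.37 and 0.27 on the log2 scale. BMP and TGF-β genes were balanced at 13 higher and 14 lower of 41. For both lists the shares over all genes were 26.1% higher and 26.8% lower. SMAD6, an inhibitor of BMP signals, had 9.31, 8.65 and 9.48 CPM in the M3 libraries, against 25.3, 24.98 and 26.5 CPM in the WT libraries (log2 fold change -1.49, SE 0.0610, edgeR adjusted p = 1.43e-17). INHBA, a subunit of activin, rose in M3 to 1.96, 1.98 and 1.65 CPM, against 0.541, 0.461 and 0.620 CPM in WT, and it was lower in N108 than in WT (log2 fold change -2.53, edgeR adjusted p = 3.85e-07).

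Genes of differentiated colon epithelium were mostly too low to be tested, 19 of 43 being measured. Of these, 12 fell and 4 rose (median -0.54). CEACAM1, an adhesion molecule of the brush border, had 1.44, 0.975 and 1.45 CPM in the M3 libraries, against 22.7, 21.1 and 22.9 CPM in the WT libraries, 17.3-fold lower (edgeR adjusted p = 1.28e-22). SLC5A1, the sodium-glucose transporter, had 0.208, 0.244 and 0.315 CPM in the M3 libraries, against 6.91, 6.40 and 6.04 CPM in the WT libraries, 25.2-fold lower (edgeR adjusted p = 6.24e-18). KRT20, a keratin of differentiated colonocytes, had 0.710, 0.910 and 0.736 CPM in the M3 libraries, against 3.27, 3.73 and 3.36 CPM in the WT libraries (log2 fold change -2.13, SE 0.169, edgeR adjusted p = 2.50e-11). M3 was lower in every library for all 3. ALPG, an alkaline phosphatase that shares sequence with its neighbours, was 129-fold lower (exact 95% counting interval 35.4 to 1070.2).

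Transcription factors of gut identity showed 8 higher and 5 lower of 24, against 26.1% higher and 26.8% lower over all genes. FOXQ1, a forkhead factor raised in colorectal cancer, had 0.363, 0.390 and 0.368 CPM in the M3 libraries, against 16.1, 15.9 and 17.4 CPM in the WT libraries, 43.7-fold lower (edgeR adjusted p = 2.24e-23). EHF, an epithelial ETS factor, had 247, 251 and 231 CPM in the M3 libraries, against 579, 568 and 573 CPM in the WT libraries (log2 fold change -1.24, SE 0.0493, edgeR adjusted p = 7.25e-18). Both were lower in every M3 library. FOXA2, also on the list, was higher and is described with the 12 highest genes below. CDX2 rose by 0.16 on the log2 scale (edgeR adjusted p = 0.015), a call lost without M3 replicate 3 or without WT replicate 1 or 2. GATA2 and GATA3, zinc finger factors outside the list and chosen after their values were seen, changed in opposite directions. GATA2 had 36.3, 35.7 and 35.9 CPM in the M3 libraries, against 148, 142 and 157 CPM in the WT libraries, and GATA3 had 35.03, 35.6 and 35.5 CPM in the M3 libraries, against 6.40, 6.95 and 6.32 CPM in the WT libraries (edgeR adjusted p = 7.25e-22 and 2.80e-21). RUNX2, a factor of bone formation, was likewise outside the list and chosen after its values were seen. It was 33.6-fold lower, with 0.485, 0.504 and 0.403 CPM in the M3 libraries, against 15.5, 15.4 and 16.2 CPM in the WT libraries.

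HOX genes, which set position along the body axis and are classical Polycomb targets, differed by cluster. Of 32 measured of 39, 13 fell and 6 rose (median -0.14), against 26.8% lower and 26.1% higher over all genes. In the HOXB cluster every measured gene was lower. HOXB6 had 29.6, 27.1 and 29.6 CPM in the M3 libraries, against 92.6, 90.7 and 88.7 CPM in the WT libraries (log2 fold change -1.66, SE 0.0498, edgeR adjusted p = 1.10e-20). HOXB4 had 10.19, 8.92 and 9.48 CPM in the M3 libraries, against 37.96, 36.4 and 37.9 CPM in the WT libraries (log2 fold change -1.97, SE 0.0668, edgeR adjusted p = 1.77e-19), and HOXB8 had 44.8, 42.03 and 45.7 CPM in the M3 libraries, against 129.7, 129 and 140.4 CPM in the WT libraries (log2 fold change -1.59, SE 0.0540, edgeR adjusted p = 1.85e-19). No HOXB group overlapped in these 3 genes. HOXB2, HOXB7, HOXB9 and HOXB13 fell by 1.85, 0.84, 0.97 and 0.39 on the log2 scale. In the HOXA cluster genes went both ways. HOXA13 had 7.46, 7.54 and 6.10 CPM in the M3 libraries, against 18.7, 18.02 and 18.8 CPM in the WT libraries (edgeR adjusted p = 6.98e-13). HOXA11 had 12.4, 12.7 and 12.9 CPM in the M3 libraries, against 8.39, 8.58 and 9.78 CPM in the WT libraries (edgeR adjusted p = 1.10e-07), while HOXA9 did not pass (log2 fold change -0.08, edgeR adjusted p = 0.22). HOXD8 rose by 1.17 on the log2 scale and HOXC10 did not pass (-0.15, edgeR adjusted p = 0.16). In N108 HOXA13 was higher than in WT, at 31.6, 32.6 and 30.2 CPM, and M3 was lower than N108 (log2 fold change -2.16, edgeR adjusted p = 2.63e-16). Of the HOX genes, 14 were lower in M3 than in N108 and 2 higher, against 16.4% lower and 15% higher over all genes.

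Polycomb and opposing enzymes changed in both directions. Of 40 members 15 fell and 10 rose (median -0.04), against 26.8% lower and 26.1% higher over all genes. EZH2, the methyltransferase of Polycomb complex PRC2, had 74.5, 75.04 and 75.5 CPM in the M3 libraries, against 85.4, 86.4 and 89.1 CPM in the WT libraries (log2 fold change -0.21, SE 0.0448, edgeR adjusted p = 2.28e-04). Its partners EED and SUZ12 fell by 0.23 and 0.28 on the log2 scale (edgeR adjusted p = 9.76e-04 and 0.012). In the complex PRC1, PHC2 had 251, 257 and 265 CPM in the M3 libraries, against 105.12, 107 and 109.8 CPM in the WT libraries (log2 fold change 1.27, SE 0.0488, edgeR adjusted p = 3.45e-18), and CBX7, a reader of the Polycomb mark, had 23.2, 24.4 and 24.9 CPM in the M3 libraries, against 55.5, 54.6 and 58.4 CPM in the WT libraries (log2 fold change -1.22, SE 0.0519, edgeR adjusted p = 3.48e-17). KDM6B, an enzyme that removes the mark, had 70.7, 72.6 and 71.8 CPM in the M3 libraries, against 44.4, 43.7 and 50.3 CPM in the WT libraries (log2 fold change 0.64, SE 0.0635, edgeR adjusted p = 2.25e-09). Every M3 library stood outside the WT range in these genes.

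YAP and TAZ are coactivators that respond to stretch and cell density and are held back by the Hippo pathway. Of a list of 37 measured genes that holds their targets together with components of that pathway, 23 fell and 5 rose (median -0.44). CCN2, a secreted matricellular target, had 1.64, 1.22 and 1.42 CPM in the M3 libraries, against 5.05, 4.90 and 4.94 CPM in the WT libraries (log2 fold change -1.80, SE 0.130, edgeR adjusted p = 3.76e-12), and CCN1 had 9.86, 9.96 and 9.76 CPM in the M3 libraries, against 24.8, 26.7 and 25.8 CPM in the WT libraries (log2 fold change -1.38, SE 0.0850, edgeR adjusted p = 5.30e-13). AMOTL2, a target that also restrains YAP, had 39.2, 43.7 and 44.01 CPM in the M3 libraries, against 109, 111 and 113 CPM in the WT libraries (log2 fold change -1.39, SE 0.0547, edgeR adjusted p = 5.46e-18). ANKRD1, the target with the largest fold, had 0.0173, 0 and 0 CPM in the M3 libraries, against 2.05, 1.93 and 2.32 CPM in the WT libraries. In ANKRD1 this was 1 count in the 3 M3 libraries, a level 367-fold lower (exact 95% counting interval 65.5 to 14523). YAP1 itself did not pass, with 197, 205 and 163 CPM in the M3 libraries, against 197, 185 and 178 CPM in the WT libraries, values that overlapped (log2 fold change 0.01, edgeR adjusted p = 0.91), while WWTR1, which encodes TAZ, fell by 0.44 on the log2 scale. The upstream kinase LATS2 and its activator NF2 fell too, NF2 with 78.97, 78.1 and 80.6 CPM in the M3 libraries, against 177, 171 and 183 CPM in the WT libraries (log2 fold change -1.16, SE 0.0446, edgeR adjusted p = 3.28e-18). N108 showed 20 lower and 8 higher against the same WT libraries, where 21.6% of all genes were lower and 20.9% higher.

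Matrix and matricellular genes fell in 19 of 31 cases and rose in 6 (median -0.52). SPARC, a collagen-binding glycoprotein, and its homologue SPARCL1 moved in opposite directions. SPARC had 0.398, 0.358 and 0.473 CPM in the M3 libraries, against 56.8, 57.6 and 56.9 CPM in the WT libraries, 139-fold lower (log2 fold change -7.12, SE 0.0991, edgeR adjusted p = 2.34e-28). SPARCL1 had 29.6, 29.7 and 31.3 CPM in the M3 libraries, against 0.129, 0.107 and 0.10 CPM in the WT libraries, 260.01-fold higher (log2 fold change 8.02, SE 0.138, edgeR adjusted p = 2.93e-26). N108 had 36.2, 33.98 and 39.5 CPM of SPARC and 0.537, 0.521 and 0.671 CPM of SPARCL1, and M3 differed from N108 in both (edgeR adjusted p = 2.59e-26 and 1.27e-24). THBS1, a large adhesive glycoprotein, had 9.48, 10.6 and 9.25 CPM in the M3 libraries, against 45.00, 45.5 and 46.5 CPM in the WT libraries (log2 fold change -2.22, SE 0.0644, edgeR adjusted p = 4.78e-21). TGM2, a crosslinking transglutaminase, had 10.4, 11.2 and 11.2 CPM in the M3 libraries, against 76.1, 77.3 and 78.5 CPM in the WT libraries (log2 fold change -2.82, SE 0.0545, edgeR adjusted p = 4.97e-25), and FN1, fibronectin, had 9.33, 9.61 and 10.4 CPM in the M3 libraries, against 21.3, 23.7 and 25.4 CPM in the WT libraries (log2 fold change -1.26, SE 0.0910, edgeR adjusted p = 2.38e-11). Integrins and laminins changed in both directions, with 11 higher and 10 lower of 30, against 26.1% higher and 26.8% lower over all genes. ITGA2, a collagen receptor subunit, had 373, 402 and 320.4 CPM in the M3 libraries, against 133, 127 and 125 CPM in the WT libraries, and ITGB1 had 534, 528 and 489 CPM in the M3 libraries, against 357, 359 and 358 CPM in the WT libraries (edgeR adjusted p = 6.42e-10 and 5.77e-11). Of the proteases and inhibitors, 10 rose and 11 fell of 26. PLAU, the urokinase activator of plasminogen, had 88.1, 86.96 and 94.8 CPM in the M3 libraries, against 44.3, 43.7 and 47.5 CPM in the WT libraries (log2 fold change 0.99, SE 0.0570, edgeR adjusted p = 2.58e-14), and ST14, the epithelial protease matriptase, had 187, 193 and 201 CPM in the M3 libraries, against 325, 330.3 and 353 CPM in the WT libraries (log2 fold change -0.80, SE 0.0499, edgeR adjusted p = 1.69e-13).

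Epithelial junction and keratin genes were mostly lower, 22 of 37, with 6 higher (median -0.31). KRT18, of the keratin pair of simple epithelia, had 650.4, 645 and 699 CPM in the M3 libraries, against 1288, 1311 and 1358 CPM in the WT libraries (log2 fold change -0.99, SE 0.0511, edgeR adjusted p = 2.51e-15). KRT8, its partner, had 1800.2, 1831 and 2000.4 CPM in the M3 libraries, against 2849, 2855 and 2988 CPM in the WT libraries (log2 fold change -0.63, SE 0.0482, edgeR adjusted p = 1.28e-11). KRT80 had 5.68, 5.77 and 5.26 CPM in the M3 libraries, against 50.5, 52.2 and 51.4 CPM in the WT libraries, 9.22-fold lower (edgeR adjusted p = 1.30e-24). In each of these keratins the M3 values lay below the WT values. CDH1, E-cadherin, had 138, 139 and 135 CPM in the M3 libraries, against 199.98, 199.8 and 208 CPM in the WT libraries (log2 fold change -0.56, SE 0.0383, edgeR adjusted p = 1.16e-12), and EPCAM had 371, 354 and 341 CPM in the M3 libraries, against 286, 278 and 296 CPM in the WT libraries (log2 fold change 0.31, SE 0.0520, edgeR adjusted p = 1.31e-05), 1 of them lower and the other higher. Factors and markers of mesenchymal transition were few, 9 measured of 15, with 3 higher and 5 lower. VIM, the mesenchymal filament vimentin, was low in both, with 0.450, 0.455 and 0.491 CPM in the M3 libraries, against 1.79, 1.67 and 1.68 CPM in the WT libraries (log2 fold change -1.88, SE 0.181, edgeR adjusted p = 1.08e-09). Among 17 Eph receptors and ephrins 8 fell and 4 rose, and EPHA2 had 88.3, 95.5 and 98.8 CPM in the M3 libraries, against 242, 247 and 252 CPM in the WT libraries (log2 fold change -1.39, SE 0.0562, edgeR adjusted p = 9.87e-18). With the GC trend removed, 7 of the Eph and ephrin genes rose.

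Genes of the ribosome were higher almost throughout. Of 78 cytosolic ribosomal protein genes 77 were higher in M3 and 0 lower, with a median of 0.55 and a range of 0.11 to 0.87. Together they held 8.59%, 8.52% and 9.47% of all counts in the M3 libraries, against 6.05%, 6.08% and 6.14% in the WT libraries. RPL22 had 293, 285 and 271 CPM in the M3 libraries, against 159.6, 154 and 152 CPM in the WT libraries (log2 fold change 0.87, SE 0.0478, edgeR adjusted p = 1.07e-14), RPL9 had 572, 564 and 643 CPM in the M3 libraries, against 321, 331 and 332 CPM in the WT libraries (log2 fold change 0.86, SE 0.0499, edgeR adjusted p = 3.79e-14), and RPS18 had 2346, 2234 and 2542 CPM in the M3 libraries, against 1365, 1408 and 1246 CPM in the WT libraries (log2 fold change 0.83, SE 0.0534, edgeR adjusted p = 3.43e-13). In these 3 all M3 values exceeded all WT values. N108 was higher than WT in 50 of the genes, with a median of 0.20, and M3 exceeded N108 in 77, against 20.9% and 15% over all genes. Ribosomal protein genes have many processed pseudogenes, so their reads can be shared. The 50 most abundant genes took 15.5% to 16.1% of counts in M3 and 13.7% to 14.8% in WT. MYC drives ribosome production, but whether it bears on the ribosomal genes here was not tested. The MYC network had 14 members higher and 5 lower of 27 (median 0.15). The 5 lower were 3 with a replicate block, with the GC trend removed, with at least 1 CPM in 3 libraries, or without replicate 1 or 2 of either group. MAX, the partner of MYC, had 65.6, 66.2 and 62.4 CPM in the M3 libraries, against 46.3, 43.1 and 44.7 CPM in the WT libraries (log2 fold change 0.53, SE 0.0532, edgeR adjusted p = 2.13e-09), and POLR1B, a subunit of the polymerase that makes ribosomal RNA, rose by 0.39 on the log2 scale (edgeR adjusted p = 1.03e-07).

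Genes of mitosis were lower almost throughout. Of 41 members 40 fell and 0 rose, with a median of -0.55, and NUSAP1 was the gene that did not pass. PLK1, a kinase of mitotic entry, had 99.1, 102 and 107 CPM in the M3 libraries, against 169, 175 and 174 CPM in the WT libraries (log2 fold change -0.75, SE 0.0487, edgeR adjusted p = 4.04e-13). AURKA, the spindle pole kinase, had 48.02, 49.2 and 51.7 CPM in the M3 libraries, against 86.6, 89.7 and 86.3 CPM in the WT libraries (log2 fold change -0.82, SE 0.0501, edgeR adjusted p = 1.02e-13), and CENPA, the histone that marks centromeres, had 14.5, 14.1 and 13.7 CPM in the M3 libraries, against 27.6, 26.3 and 26.5 CPM in the WT libraries (log2 fold change -0.93, SE 0.0560, edgeR adjusted p = 7.51e-14). CCNB1 and CDK1, which form the mitotic kinase, fell by 0.50 and 0.45 on the log2 scale (edgeR adjusted p = 2.00e-10 and 8.51e-09). The differences were narrow but without overlap in these genes. N108 had 29 of the 41 lower than WT, and 33 were lower in M3 than in N108, against 21.6% and 16.4% over all genes. S phase genes showed 29 lower and 2 higher of 44 (median -0.21). RRM2, a subunit of ribonucleotide reductase, had 292, 306 and 286 CPM in the M3 libraries, against 428, 441 and 425 CPM in the WT libraries (log2 fold change -0.55, SE 0.0401, edgeR adjusted p = 4.32e-12), and E2F1, the factor of S phase entry, had 36.4, 35.9 and 40.5 CPM in the M3 libraries, against 54.2, 55.5 and 56.4 CPM in the WT libraries (log2 fold change -0.56, SE 0.0541, edgeR adjusted p = 1.25e-09). PCNA fell by 0.40 on the log2 scale. Replication-dependent and linker histones, of which 18 of 43 were measured, had 9 lower and 2 higher. Without M3 replicate 2, 5 histone genes were lower, and under 9 of the alternatives 1 was higher. Their near-identical copies can share reads.

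Lipid synthesis genes under the sterol-regulated factor SREBP were mostly lower. Of 39 genes 29 were lower and 5 higher (median -0.40). INSIG1, which holds SREBP back when sterols are high and is itself a target, had 41.5, 44.03 and 41.3 CPM in the M3 libraries, against 109.5, 107 and 108 CPM in the WT libraries (log2 fold change -1.35, SE 0.0483, edgeR adjusted p = 6.10e-19). LSS, which closes the sterol rings, had 75.8, 78.98 and 79.9 CPM in the M3 libraries, against 147, 153 and 157 CPM in the WT libraries (log2 fold change -0.96, SE 0.0468, edgeR adjusted p = 6.47e-16). SREBF1, one of the SREBP genes, had 209, 224 and 229 CPM in the M3 libraries, against 399, 401 and 427 CPM in the WT libraries (log2 fold change -0.89, SE 0.0526, edgeR adjusted p = 5.01e-14). The 3 genes were lower in every M3 library. SCD and FASN, enzymes of fatty acid synthesis, fell by 0.57 and 0.40 on the log2 scale, and HMGCS1 by 0.37. SQLE rose by 0.25 on the log2 scale, and ACSL5, on the list as an acyl-CoA synthetase, is described below. M3 was lower than N108 in 26 genes of the list and higher in 3, against 16.4% lower and 15% higher over all genes.

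Hypoxia and glycolysis genes were mostly higher. Of 41 measured 28 were higher and 7 lower (median 0.32). CA12, a surface carbonic anhydrase, had 29.8, 31.8 and 30.4 CPM in the M3 libraries, against 5.50, 5.43 and 5.74 CPM in the WT libraries, 5.52-fold higher (log2 fold change 2.47, SE 0.0646, edgeR adjusted p = 4.68e-22). ANGPTL4, an inhibitor of lipoprotein lipase, had 22.2, 19.96 and 23.7 CPM in the M3 libraries, against 4.48, 4.34 and 4.86 CPM in the WT libraries (log2 fold change 2.27, SE 0.172, edgeR adjusted p = 3.13e-08). PDK1, a kinase that inhibits pyruvate dehydrogenase, had 44.9, 44.3 and 36.6 CPM in the M3 libraries, against 16.1, 14.6 and 15.4 CPM in the WT libraries (log2 fold change 1.45, SE 0.111, edgeR adjusted p = 5.75e-09). NDRG1 had 347, 315 and 317 CPM in the M3 libraries, against 103, 88.9 and 104 CPM in the WT libraries (log2 fold change 1.73, SE 0.135, edgeR adjusted p = 1.06e-07). SLC2A3, a glucose transporter on the same list, went the other way with 1.06, 1.17 and 0.841 CPM in the M3 libraries, against 13.8, 12.4 and 14.8 CPM in the WT libraries, 13.3-fold lower (edgeR adjusted p = 1.10e-20). N108 had 32 of the genes higher than the same WT libraries, and M3 was lower than N108 in 17 and higher in 2. Over all genes 20.9% were higher in N108 than in WT, and 16.4% were lower and 15% higher in M3 than in N108.

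Stress programmes changed in both directions. Their counts stand beside shares over all genes of 26.1% higher and 26.8% lower. Heat shock genes had 16 lower and 2 higher of 27. The chaperone HSPH1 had 176, 170.2 and 161 CPM in the M3 libraries, against 337, 337 and 339.6 CPM in the WT libraries (log2 fold change -1.0, SE 0.0480, edgeR adjusted p = 4.87e-16). Genes of the unfolded protein and ATF4 responses had 15 lower and 6 higher of 34. PSAT1, an enzyme of serine synthesis, had 110.1, 112 and 113 CPM in the M3 libraries, against 192, 189.9 and 181 CPM in the WT libraries (log2 fold change -0.75, SE 0.0527, edgeR adjusted p = 1.86e-12). NRF2 and antioxidant genes had 11 higher and 6 lower of 32, and the BCL2 family 3 higher and 10 lower of 17. BCL2L1, which encodes the survival protein BCL-XL, had 201, 206 and 214 CPM in the M3 libraries, against 397, 404 and 419.6 CPM in the WT libraries (log2 fold change -0.98, SE 0.0430, edgeR adjusted p = 6.91e-17). Of the iron genes 8 rose and 3 fell of 17, and LCN2, a siderophore-binding protein made by inflamed epithelium, had 0.606, 0.293 and 0.421 CPM in the M3 libraries, against 27.4, 28.1 and 26.1 CPM in the WT libraries, 62.03-fold lower (edgeR adjusted p = 1.98e-24).

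The retinoic acid pathway, which shapes epithelial fate, had 12 genes lower and 2 higher of 17 (median -0.46). ALDH1A3, an enzyme that makes retinoic acid, had 743, 713 and 693 CPM in the M3 libraries, against 1474, 1451 and 1521 CPM in the WT libraries (log2 fold change -1.05, SE 0.0418, edgeR adjusted p = 6.99e-18). CYP26B1, which breaks it down, had 16.7, 16.3 and 17.8 CPM in the M3 libraries, against 45.8, 42.95 and 45.8 CPM in the WT libraries (log2 fold change -1.41, SE 0.0572, edgeR adjusted p = 1.13e-17), and STRA6, the receptor that takes up retinol, had 0.190, 0.309 and 0.298 CPM in the M3 libraries, against 3.54, 3.62 and 3.54 CPM in the WT libraries (log2 fold change -3.73, SE 0.232, edgeR adjusted p = 2.44e-13). All 3 were lower in each M3 library. Mitochondrially encoded genes showed 3 called lower and 12 not called of 15. The 3 were MT-RNR1 and MT-RNR2, the ribosomal RNAs, and MT-ND6, with log2 fold changes of -0.87, -0.43 and -1.16 (edgeR adjusted p = 2.75e-07, 2.71e-04 and 0.0056). Neuronal genes were mostly too low to be tested, 14 measured of 36, with 2 higher and 7 lower. SCG2, a secretogranin, was higher in M3 than in WT and lower in N108 than in WT, at 109, 107 and 111 CPM in M3, 29.1, 28.9 and 27.9 CPM in N108 and 61.8, 59.4 and 61.3 CPM in WT (M3 against N108, edgeR adjusted p = 3.14e-21).

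The largest differences were in genes at or near 0 in one of the groups. Among the 12 lowest, SEMG1, a semenogelin, had 0, 0 and 0 CPM in the M3 libraries, against 10.17, 9.82 and 9.84 CPM in the WT libraries, at least 586-fold lower. ZNF502, a zinc finger gene, had 0, 0 and 0 CPM in the M3 libraries, against 3.99, 4.19 and 4.46 CPM in the WT libraries, at least 246-fold lower. TNC, the matrix protein tenascin C, had 0, 0 and 0 CPM in the M3 libraries, against 2.05, 2.26 and 2.22 CPM in the WT libraries, at least 127-fold lower. Each bound takes 3 counts over the group that had none, and covers counting error only, as do the intervals that follow. LRP2, the endocytic receptor megalin, was 513-fold lower (exact 95% counting interval 175 to 2489), and MUC13, a membrane mucin of the gut, 536-fold lower (exact 95% counting interval 95.8 to 21207). STC1, a secreted glycoprotein hormone, had 0.467, 0.683 and 0.894 CPM in the M3 libraries, against 168, 165 and 162 CPM in the WT libraries, 242-fold lower (log2 fold change -7.92, SE 0.141, edgeR adjusted p = 1.36e-19). PLEKHS1 had 0.0692, 0.0813 and 0.140 CPM in the M3 libraries, against 45.8, 47.1 and 46.2 CPM in the WT libraries, 471-fold lower (edgeR adjusted p = 1.29e-28), and BPIFB1, a secreted defence protein of mucosa, had 0.0865, 0.0488 and 0.0701 CPM in the M3 libraries, against 14.7, 14.02 and 14.6 CPM in the WT libraries, 206-fold lower (edgeR adjusted p = 2.46e-24). KRTAP3-1 and KRT36, of the hair keratin genes, and APOBEC3G and ANKRD1, given above, completed the 12. In ZNF502 N108 was not lower than WT. N108 had 5.45, 6.11 and 5.04 CPM, and M3 differed from N108 with an edgeR adjusted p of 8.37e-19.

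Among the 12 highest, RIMS1, which organises release sites at synapses, had 6.97, 6.99 and 6.17 CPM in the M3 libraries, against 0, 0 and 0 CPM in the WT libraries, at least 432-fold higher. RGS7, a regulator of G protein signals, had 2.11, 1.95 and 2.05 CPM in the M3 libraries, against 0, 0 and 0 CPM in the WT libraries, at least 131-fold higher. TIMP3, an inhibitor of metalloproteases, was 185-fold higher (exact 95% counting interval 50.8 to 1532). The pseudogene ZNF818P was 295-fold higher (exact 95% counting interval 52.5 to 11702), and LINC00960 was 182-fold higher (exact 95% counting interval 61.99 to 887). FOXA2, a pioneer factor of endoderm, had 1.44, 1.30 and 1.02 CPM in the M3 libraries, against 0.0644, 0 and 0.060 CPM in the WT libraries, 28.8-fold higher (edgeR adjusted p = 1.93e-11). RPL10AP2, a processed pseudogene of RPL10A, had 5.36, 4.92 and 5.26 CPM in the M3 libraries, against 0.258, 0.169 and 0.180 CPM in the WT libraries, and shares sequence with RPL10A, which rose by 0.79 on the log2 scale. SCN3A, a sodium channel, CSRNP3 and B3GALT1 lie near each other on chromosome 2, and SPARCL1 and DKK4, given above, complete the set. RIMS1 was at 0, 0 and 0 CPM in N108, so that M3 differed from N108 as it did from WT (edgeR adjusted p = 2.58e-15).

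**Figure D3:**
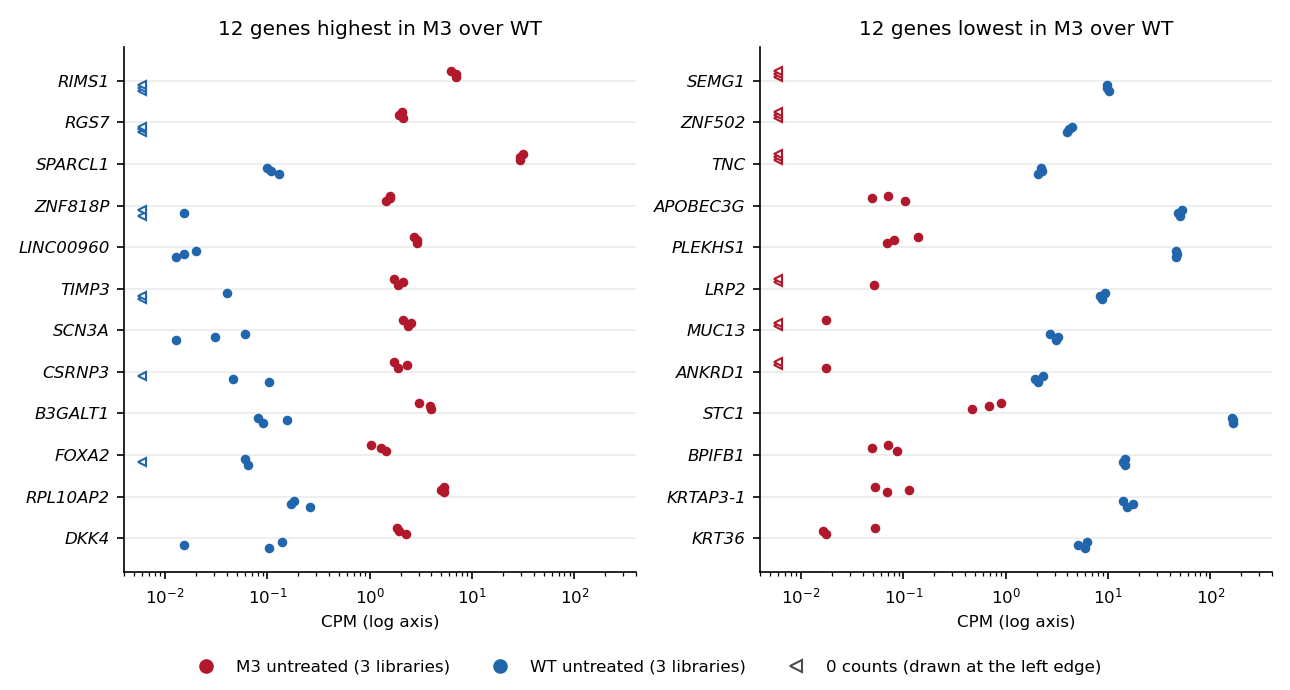
Level in CPM (log x axis) of the 12 genes with the highest and the 12 with the lowest log2 fold change, in the 3 untreated M3 libraries (red) and the 3 untreated WT libraries (blue). Open triangles at the left edge mark libraries with 0 counts. Only genes without overlap between the groups could be picked for these 24. Their levels differ by an order of magnitude or more.

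Abundant genes, averaging 100 CPM or more in whichever group was higher, gave a further set. ACSL5, which activates fatty acids in enterocytes, had 654, 659 and 647 CPM in the M3 libraries, against 38.6, 38.8 and 42.2 CPM in the WT libraries, 16.4-fold higher (log2 fold change 4.04, SE 0.0479, edgeR adjusted p = 1.69e-29). ADGRF1, an adhesion G protein-coupled receptor, had 201, 207 and 203 CPM in the M3 libraries, against 21.03, 20.8 and 22.1 CPM in the WT libraries (log2 fold change 3.26, SE 0.0485, edgeR adjusted p = 8.50e-28), and PALLD, an actin crosslinker, had 549, 560.4 and 509 CPM in the M3 libraries, against 94.9, 93.8 and 95.96 CPM in the WT libraries (log2 fold change 2.51, SE 0.0435, edgeR adjusted p = 3.28e-26). A gene could enter this set only if its M3 and WT values did not overlap. VGF, a neuropeptide precursor, HAS3, which makes hyaluronan, and MAOB, a monoamine oxidase, rose by 3.19, 2.23 and 2.19 on the log2 scale. On the lower side, FRMD4B had 3.34, 3.23 and 3.01 CPM in the M3 libraries, against 123.34, 126 and 118 CPM in the WT libraries (log2 fold change -5.26, SE 0.0709, edgeR adjusted p = 1.29e-28). ANXA3, an annexin, had 29.4, 29.96 and 29.1 CPM in the M3 libraries, against 276, 279 and 269.8 CPM in the WT libraries (log2 fold change -3.22, SE 0.0453, edgeR adjusted p = 2.62e-28). TBC1D9 fell by 2.63 on the log2 scale, and STC1 and APOBEC3F are given above. PALLD and HAS3 did not differ between M3 and N108 at the threshold (log2 fold change 0.08 and -0.05, edgeR adjusted p = 0.16 and 0.52).

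Called genes lay next to each other along the genome in several places. A run was 5 or more neighbouring measured protein-coding genes, all called in the same direction. There were 117 runs with 705 genes, 44 higher and 73 lower, and at a length of 7 or more there were 28, of which 11 were higher and 17 lower. Of all measured protein-coding genes 59.6% were called, a share that by itself gives some runs. How many it would give was not computed. The 5 runs of 10 or more genes were all lower in M3. The longest held 20 genes of the type I keratins and keratin-associated proteins, from KRT20 to KRT16, at chr17:40875941-41615899 in GRCh38. Its log2 fold changes lay between -7.58 and -0.52, with a median of -2.57. KRT23 had 41.6, 41.98 and 46.9 CPM in the M3 libraries, against 142, 145 and 143 CPM in the WT libraries (log2 fold change -1.72, SE 0.0558, edgeR adjusted p = 6.42e-20), KRT19 had 1119, 1104 and 1201 CPM in the M3 libraries, against 1605, 1599 and 1705 CPM in the WT libraries (log2 fold change -0.52, SE 0.0530, edgeR adjusted p = 3.22e-09), and KRTAP3-1 had 0.0692, 0.114 and 0.0526 CPM in the M3 libraries, against 15.3, 17.5 and 13.9 CPM in the WT libraries (edgeR adjusted p = 2.85e-22). Of the genes at the ends of the run, KRT39, KRT9, KRT14 and KRT16 stayed under 1 CPM in both groups. KRT16 lost its call without M3 replicate 1 or WT replicate 3. Levels of most genes between the ends are not given here. KRT9, at a log2 fold change of -2.49, lay beside the median, which thus rests in part on genes of low level. Several of these genes are near-identical copies. In N108 19 of the 20 genes were lower than in the same WT libraries, with a median of -2.58.

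The other long runs held NR4A1 to KRT18 with ATG101 and 9 keratin genes (11 genes, chr12:52022832-52952901, median -1.40), the HOXB cluster from SNX11 to HOXB13 (11 genes, chr17:48103357-48729178, median -1.41), MYEOV to NADSYN1 with CCND1 (11 genes, chr11:69294138-71524107, median -0.42) and NPTXR to PDGFB with the APOBEC3 genes (10 genes, chr22:38818452-39244751, median -1.76). In the chromosome 12 run KRT81 had 0.0346, 0.0488 and 0.0175 CPM in the M3 libraries, against 0.850, 0.599 and 0.480 CPM in the WT libraries, and its near copy KRT86 fell too, so their reads cannot be parted with certainty. CCND1, cyclin D1, fell in the chromosome 11 run by 0.52 on the log2 scale. By chromosome, the median log2 fold change ran from -0.09 on chromosome 22, with 15.5% of genes higher and 33.7% lower, to 0.09 on chromosome 4, with 35.4% higher and 22.7% lower. Copy number of the lines was not analysed here.

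**Figure D4:**
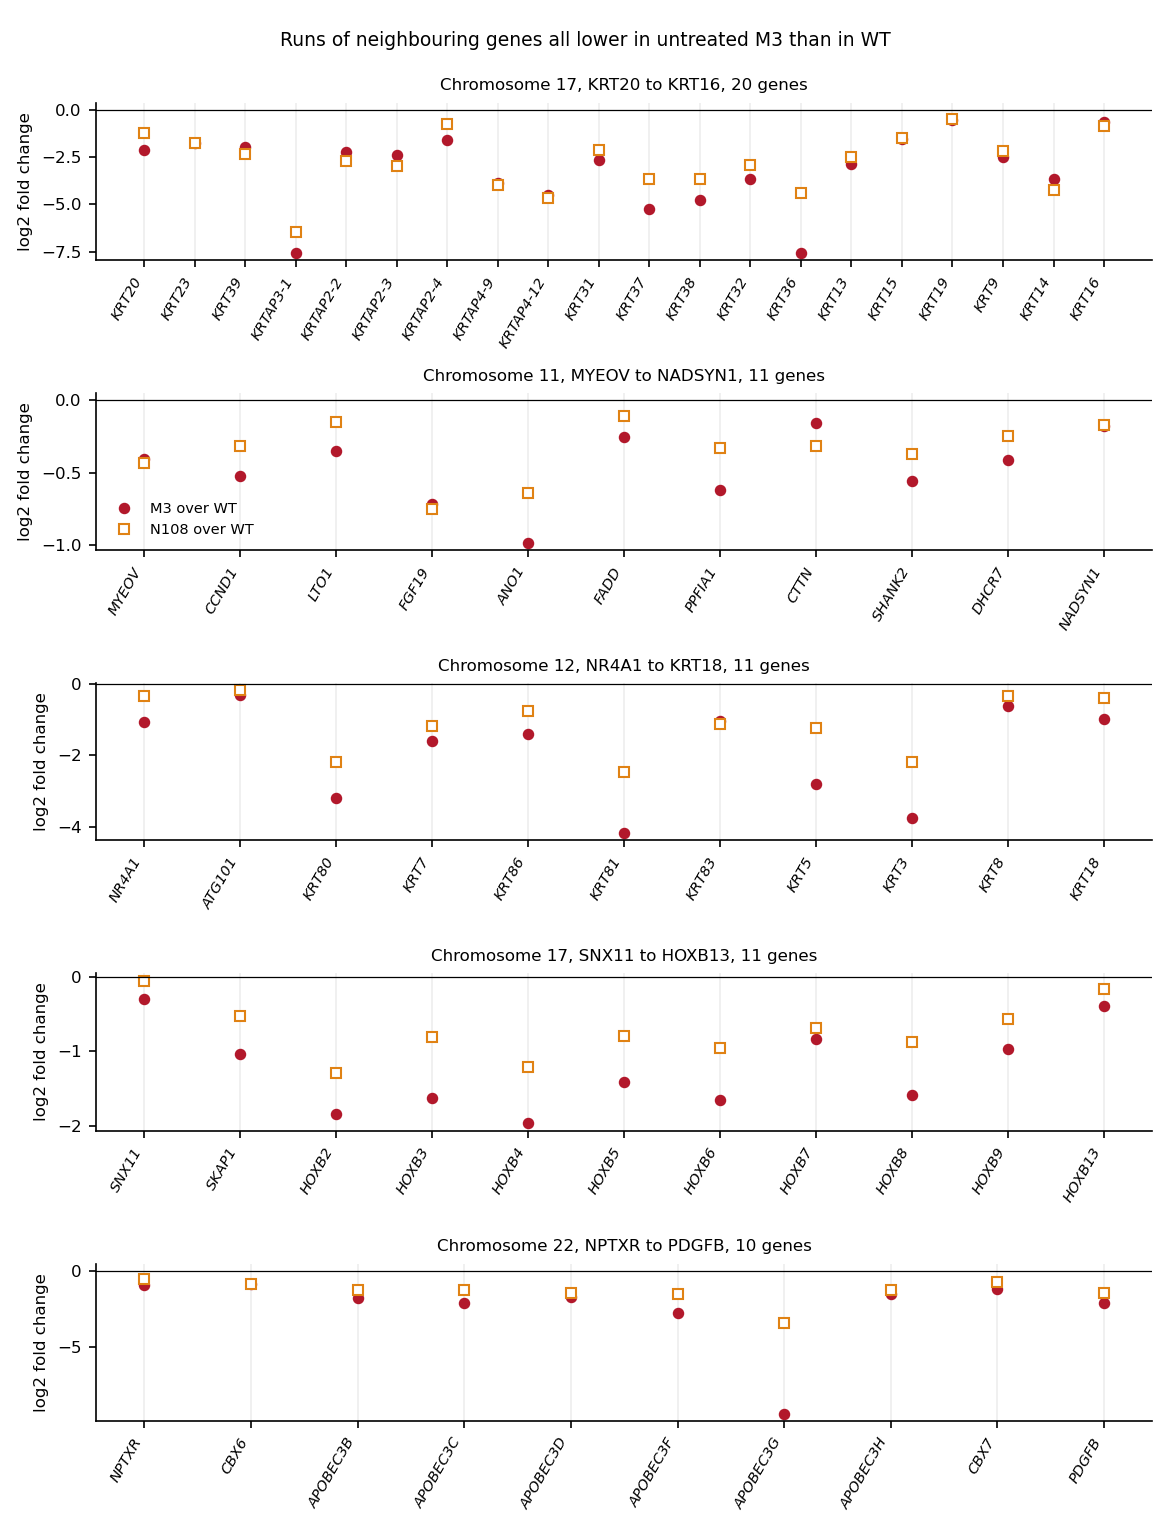
Log2 fold change (y axis) of each gene in the 5 longest runs, in genome order on the x axis, for M3 over WT (red points) and N108 over WT (open squares), both untreated and with the same WT libraries. All M3 points lie below 0, from -9.37 for APOBEC3G to -0.16 for CTTN.

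The same genotype contrast was measured in 6 further libraries, M3 with TNF and WT with TNF, which share the lines but no library with the untreated ones. There 10417 genes differed (54.7%), 5120 higher (26.9%) and 5297 lower (27.8%). Of the genes called untreated, 8268 were called in the same direction with TNF, which is 82.0% of the untreated calls and 79.4% of the calls with TNF, and 22 were called in the opposite direction. Of the 1763 genes that differed at least 2-fold untreated, 1479 were called in the same direction and 4 in the opposite one. Across genes, which are not independent replicates, Pearson's r of the log2 fold changes was 0.90. SPARC, SPARCL1, STC1 and ACSL5 had log2 fold changes of -7.15, 8.45, -8.11 and 3.98 with TNF, close to -7.12, 8.02, -7.92 and 4.04 untreated. The interferon-stimulated genes had 36 lower and 1 higher with TNF, and the mitotic genes 38 lower and 0 higher. Other lists kept fewer calls. The hypoxia and glycolysis genes had 18 higher and 8 lower of 41, with 24 called in the same direction as untreated. Early NF-κB targets had 11 higher and 10 lower of 32, with 7 in the same direction. Of the 3 mitochondrially encoded genes called untreated, 1 was called in the same direction.

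The difference itself changed with TNF in 60 genes (0.315%; interaction term, edgeR adjusted p under 0.05), 54 with a higher log2 fold change with TNF (0.284%) and 6 with a lower one (0.0315%). An unadjusted p under 0.05 was reached by 1693 genes (8.89%). Early NF-κB targets made up 8 of the 60. TNFAIP3 was at log2 fold changes of -1.71 untreated and -0.27 with TNF (difference 1.44, SE 0.0867, edgeR adjusted p = 3.04e-11). NFKBIZ was at -1.04 untreated and 0.29 with TNF (difference 1.33, edgeR adjusted p = 8.70e-09). CXCL8 was at -1.01 untreated and 0.62 with TNF (difference 1.63, edgeR adjusted p = 3.69e-07). NFKBIA followed the same pattern, with 943, 985 and 969.7 CPM in M3 with TNF, against 744, 749 and 781 CPM in WT with TNF (difference 0.58, edgeR adjusted p = 3.54e-05). For these genes the sign or the size of the M3 difference differed with treatment, while for most others no such change was called.

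**Figure D5:**
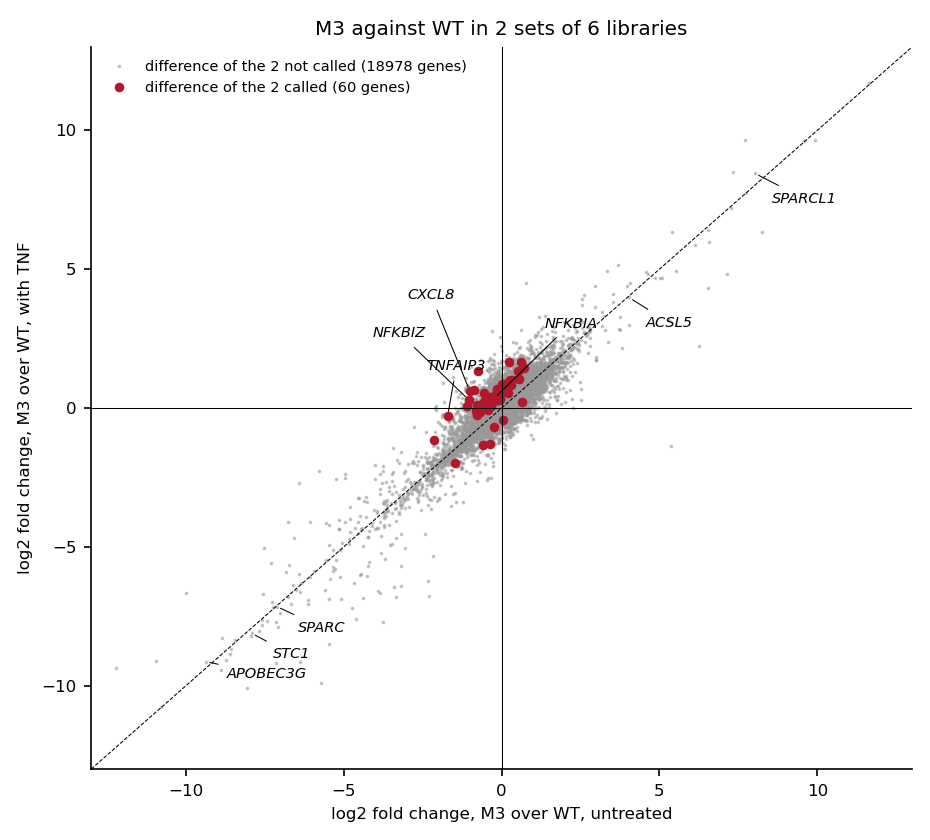
Log2 fold change of M3 over WT untreated (x axis) and with TNF (y axis) for the 19038 genes tested. Red points are the 60 genes whose difference changed with TNF, and the dashed line marks equal values. Most genes lie along the line, and TNFAIP3, NFKBIZ, CXCL8 and NFKBIA lie above it.

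N108 was compared with the same 3 WT libraries, so its values can only be set beside those of M3. It differed from WT in 8079 genes (42.4%), 3972 higher (20.9%) and 4107 lower (21.6%), 1053 of them at least 2-fold (5.53%). M3 and N108 themselves differed in 5994 genes (31.5%), 2864 higher in M3 (15%) and 3130 lower (16.4%). Among interferon-stimulated genes, which had 36 lower in N108 than in WT, 8 were lower and 7 higher in M3 than in N108. Among ribosomal protein genes 77 and among mitotic genes 33 differed between the mutants, against 15% higher and 16.4% lower over all genes. OAS1 had 1.02, 0.699 and 1.16 CPM in M3, 1.21, 2.03 and 1.73 CPM in N108 and 14.4, 14.7 and 14.8 CPM in WT. INSIG1 had 41.5, 44.03 and 41.3 CPM in M3, 71.5, 74.4 and 72.9 CPM in N108 and 109.5, 107 and 108 CPM in WT. For NFKBIA, N108 lay further from WT than M3 did.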

How the data were processed

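RNA was sequenced from 18 libraries of HCT116 knock-in lines in 6 groups of 3. Per the submitters' processing notes, the tools were featureCounts (Subread 2.0.1), STAR 2.7.8, DESeq2 1.38.3 and Trim Galore 0.6.6, with build hg38, and the authors deposited raw counts per gene. The annotation release and the strand setting were not found in these notes. The authors also deposited a normalized table of values on a log2 scale, which was checked and not used.

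Differences were then computed from these counts in R 4.3.3, using edgeR 4.0.16 (TMM scaling, robust quasi-likelihood fit of 6 group means over all 18 libraries, 12 residual degrees of freedom). The low-count filter of edgeR, with a minimum count of 10, kept 19038 of 61552 genes, which held 99.97% of counts. Genes with a Benjamini-Hochberg adjusted p under 0.05 were called, and SE is that of the log2 fold change. Named genes were the 12 highest and 12 lowest called genes with at least 1 CPM, the 6 highest and 6 lowest with at least 100 CPM, up to 5 per list, the NF-κB genes, the ends of the longest run, and further members chosen after their values were seen. Genes picked as the 12 or the 6 each way also had to show no overlap between the M3 and WT untreated libraries. The members and the 49 lists, with 1160 of 1361 genes measured, were chosen with earlier results of these data known. Gene positions are those of GENCODE release 29 on GRCh38, a reference added here and not named by the submitters. On simulated counts 98 of 100 genes changed by 1 on the log2 scale were recovered, and 79 of 100 changed by 0.5, with 4.32% of calls false. Only these genes of 19038 were changed there, whereas 52.9% were called in the data. The check therefore does not cover so broad a change. No 2 libraries of a group were duplicates. Alternatives were DESeq2 1.42.0, its size factors, other filters, the 6 libraries alone, a replicate block, removal of a GC trend, and leaving out each library. Some genes that the rule for named genes selects are not reported here.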

Additional observations from a re-analysis of the deposited data

Results flagged for a closer look

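The M3 difference changed with TNF in 60 genes, by the interaction term of the edgeR fit (adjusted p under 0.05). Values here are the log2 fold change with TNF minus that of untreated cells. The difference was 1.63 for the chemokine CXCL8, 1.44 for TNFAIP3, 1.33 for NFKBIZ and 1.13 for CXCL1 (edgeR adjusted p = 3.69e-07, 3.04e-11, 8.70e-09 and 0.03). It was 0.58 for NFKBIA and 0.99 for PDGFB, a growth factor gene (edgeR adjusted p = 3.54e-05 and 3.26e-05). It was -0.75 for DEPP1 (edgeR adjusted p = 1.05e-04), which had 11.4, 13.5 and 12.8 CPM in M3 with TNF, against 29.98, 31.9 and 32.4 CPM in WT with TNF, and 9.67, 10.1 and 10.24 CPM in untreated M3, against 15.2, 14.9 and 14.8 CPM in untreated WT.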

How the results depend on the processing

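The count of 10079 called genes was 9874 by DESeq2, 10095 with DESeq2's size factors, 8920 with at least 1 CPM in 3 libraries, 10069 with no filter, 10203 in the 6 libraries alone and 10854 with a GC trend removed. Leaving out 1 library at a time gave 9119 to 9662. The 1763 genes at least 2-fold apart numbered 895 with at least 1 CPM in 3 libraries, a setting that tests fewer genes, 2107 with no filter, and 1725 to 1748 with a library left out. M3 and WT libraries share replicate numbers. Deviations of same-numbered libraries correlated at 0.026, 0.012 and 0.047, and M3 replicate 2 correlated best with WT replicate 1, so the numbers were not taken as pairs. The GC trend was negative in replicates 1 and 2 and positive in replicate 3 of both groups, and replicate 3 differed from the other two more than these did from each other (chi-square per degree of freedom 15.6 and 16.3 against 4.75 in M3, and 10.98 and 12.6 against 3.42 in WT). The replicate block gave 9962 called genes, and 10874 with the GC trend removed as well. YAP1, not called under any setting, was 0.01 in the reported fit, -0.026 with the GC trend removed, -0.027 with block and GC removal, and -0.054 to 0.106 with 1 library left out; the cause was not tested. Of 329 named genes, all kept direction and call by DESeq2. Among others, KRT16, CDX2, PDGFRB and CXCL1 lost their call, and RELB, REL, NFKB2 and HLA-C gained one, under at least 1 setting. The 6 libraries limit precision, and folds of genes near 0 are bounds or wide intervals.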

Other observations

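The genes below and the ends of each stretch were chosen after their values were seen. Counts within a stretch follow in part from that choice. Over all genes tested 26.1% were higher and 26.8% lower. On chromosome 2, from SCN3A to LRP2 (chr2:165087522-169362685), 6 of 11 measured genes were higher in M3 and 4 lower. The sodium channel gene SCN2A had 2.73, 2.86 and 3.00 CPM in the M3 libraries, against 0.901, 0.814 and 0.840 CPM in the WT libraries (log2 fold change 1.74, SE 0.152, edgeR adjusted p = 1.54e-10), and B3GALT1 had 3.98, 3.87 and 3.01 CPM in the M3 libraries, against 0.0901, 0.154 and 0.0800 CPM in the WT libraries (edgeR adjusted p = 1.36e-15). N108 lay below WT in both, with 0.403, 0.625 and 0.393 CPM of SCN2A and 0, 0.0130 and 0.0164 CPM of B3GALT1. NOSTRIN in the same stretch had 0.121, 0.146 and 0.228 CPM in the M3 libraries, against 1.70, 1.44 and 1.6 CPM in the WT libraries (log2 fold change -3.25, SE 0.242, edgeR adjusted p = 6.37e-12), and N108 had 1.54, 1.52 and 1.41 CPM.

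On chromosome 10, GPAM, ACSL5, ZDHHC6, VTI1A and TCF7L2 (chr10:112149864-113167678) formed a run as defined above, all called higher in M3. Their median log2 fold change was 0.94. GPAM, an enzyme of triglyceride synthesis, had 67.1, 69.3 and 60.5 CPM in the M3 libraries, against 40.4, 41.2 and 40.1 CPM in the WT libraries (log2 fold change 0.69, SE 0.0533, edgeR adjusted p = 1.24e-11). VTI1A, a SNARE protein, had 91.5, 93.2 and 92.2 CPM in the M3 libraries, against 49.2, 48.7 and 45.9 CPM in the WT libraries (log2 fold change 0.94, SE 0.0477, edgeR adjusted p = 1.51e-15). On chromosome 20, PI3, SEMG1, SEMG2 and SLPI (chr20:45174876-45254564) were 4 of 4 lower. SLPI, a protease inhibitor of mucosa, had 0.121, 0.146 and 0.123 CPM in the M3 libraries, against 16.97, 17.8 and 19.6 CPM in the WT libraries, 136-fold lower (edgeR adjusted p = 2.89e-24), and N108 had 0.873, 0.808 and 0.785 CPM.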
